A study of Homo sapiens with 24 samples.

Results

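The HSP70 chaperones examined here comprised 10 genes, HSPA1A, HSPA1B, HSPA1L, HSPA2, HSPA4, HSPA4L, HSPA6, HSPA8, HSPA9 and HSPA13, selected by gene symbol from the 60308 genes with exon counts and the 37473 genes with intron counts. Because HSPA1A and HSPA1B are near-identical, the sum of their counts was treated as an additional entry. RNA was sequenced from U2OS cells, a human osteosarcoma line, after rRNA depletion. Cells received 0.12% DMSO for 2 h (Ctrl), 500 µM sodium arsenite (NaAsO2) for 60 min, 6 µM RK-33 with a pre-treatment of 1 h, or RK-33 followed by NaAsO2 at these doses (Combo). NaAsO2 is an oxidative stressor that damages proteins and induces stress granules (SGs), and RK-33 is an inhibitor of the RNA helicase DDX3. For each treatment, 3 lysates were cleared of nuclei by a slow spin and then divided by a faster spin into a soluble cytoplasm and an insoluble pellet that is enriched for SGs and P-bodies, which gave 24 libraries in 8 groups of 3. Within a group, values are listed in the order of replicates 1, 2 and 3. All groups came from a single cell line with a single dose and duration of each agent. The study's methods describe the replicates as 3 repeats of the experiment without saying whether each repeat used a separate culture, so p-values measure the spread between these repeats, part of which may be technical.

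Libraries held between 10968059 and 19799530 exon plus intron counts. Expression is given in CPM, exon counts relative to the library total after TMM scaling. CPM are shares of a library's RNA, so a rise or fall between treatments need not be a change in amount. The study added a spike-in to each library, which was not used for scaling here. Of the markers of the osteoblast lineage, RUNX2 (45.4 to 89.9 CPM), SPARC (677 to 2541 CPM), COL1A1 (766 to 7843 CPM) and ALPL (5.41 to 17.9 CPM) were detected in every library, whereas COL1A2 and BGLAP did not exceed 2.25 and 0.990 CPM. Of epithelial markers, KRT8 and KRT18 lay between 86.5 and 398 CPM, EPCAM between 0.692 and 7.27 CPM and CDH1 between 3.79 and 6.55 CPM. The leukocyte marker PTPRC (up to 2.08 CPM) and the endothelial marker PECAM1 (up to 3.05 CPM) were detected at a low level in every library, and the T cell marker CD3E reached at most 0.101 CPM. A chi-square comparison of counts over genes set 3 libraries apart from the other replicates of their groups. Its value per degree of freedom was 130 to 142 for replicate 3 of the NaAsO2 insoluble group, 23.1 to 32.4 for replicate 3 of soluble RK-33 and 25.5 to 32.1 for replicate 3 of insoluble Combo, against 2.39 to 7.01 for all other pairs of replicates. The abundant non-coding RNA RN7SL1 held 5.79% of exon counts in the first of these libraries, against 0.426% to 1.23% in the other insoluble libraries, and 15.5% in the second, against 7.51% to 13.1% in the other soluble libraries. All 3 had the highest HSPA1A, HSPA1B and HSPA6 values of their groups, and results of the members are given without them where that changes a call. Fits without single libraries were kept for the members alone, not for the partners of HSP70 examined below.

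HSP70 proteins bind short hydrophobic stretches of unfolded proteins and release them in a cycle of ATP binding and hydrolysis. J-domain proteins deliver clients and stimulate the ATPase, and nucleotide exchange factors reset the chaperone for another round. HSPA8 (HSC70) is the constitutive cytosolic member, which also uncoats clathrin vesicles, whereas HSPA1A, HSPA1B and HSPA6 are the stress-inducible members, whose transcription is driven by heat shock factor 1 (HSF1) when misfolded proteins draw HSP70 away from it. HSPA1L and HSPA2 are best known from the testis, HSPA9 (mortalin) works in mitochondria, HSPA13 is associated with microsomes, the endoplasmic reticulum member HSPA5 was not among the 10, and HSPA4 and HSPA4L belong to the HSP110 branch, which serves as nucleotide exchange factors. Stress granules form when translation initiation stops, and mRNAs of inducible chaperones are known to escape this arrest.

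HSPA1L, HSPA1A and HSPA1B lie next to each other on chromosome 6 (GRCh38). HSPA1L occupies chr6:31809619-31815283 on the minus strand, HSPA1A chr6:31815543-31817946 on the plus strand and HSPA1B chr6:31827738-31830254 on the plus strand. HSPA1L and HSPA1A are divergent, with 259 bases between their starts, and HSPA1A and HSPA1B are separated by 9791 bases. HSPA6 lies at chr1:161524540-161526894 on the plus strand and HSPA8 at chr11:123057489-123063230 on the minus strand. HSPA1A, HSPA1B and HSPA6 consist of exon sequence alone in the annotation, so they had no intron entry, whereas the other 7 members did.

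The stretches of 250 bases before the annotated start of the 3 intronless members are shown because these genes moved together across the treatments. Each is written 5′ to 3′ on the strand of the gene (RefSeq, GRCh38.p14), with perfect heat shock element repeats in capitals. The searched letters were GAANNTTC and TTCNNGAA for 2 inverted units and GAANNTTCNNGAA and TTCNNGAANNTTC for 3 units, on both strands, and a match of 3 units contains matches of 2 units.
HSPA1A (chr6:31815293-31815542, plus strand): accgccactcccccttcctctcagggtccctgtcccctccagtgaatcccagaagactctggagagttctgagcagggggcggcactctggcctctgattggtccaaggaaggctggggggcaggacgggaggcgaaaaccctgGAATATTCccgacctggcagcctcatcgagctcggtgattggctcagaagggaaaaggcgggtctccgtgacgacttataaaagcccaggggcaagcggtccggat
HSPA1B (chr6:31827488-31827737, plus strand): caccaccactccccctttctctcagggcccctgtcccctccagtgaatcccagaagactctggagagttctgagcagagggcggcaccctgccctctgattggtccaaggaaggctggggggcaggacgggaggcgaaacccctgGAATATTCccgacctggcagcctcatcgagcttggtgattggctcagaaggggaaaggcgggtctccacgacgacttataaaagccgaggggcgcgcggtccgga
HSPA6 (chr1:161524290-161524539, plus strand): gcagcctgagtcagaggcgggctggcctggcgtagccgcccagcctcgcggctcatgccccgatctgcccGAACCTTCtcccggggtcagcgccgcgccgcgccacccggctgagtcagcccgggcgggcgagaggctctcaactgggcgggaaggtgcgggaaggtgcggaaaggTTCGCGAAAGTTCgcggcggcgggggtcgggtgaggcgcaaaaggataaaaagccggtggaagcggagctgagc
The HSPA1A and HSPA1B stretches were identical at 235 of 249 aligned bases (94.38%), and each held a single match of 2 units, which began at base -106 in HSPA1A and -105 in HSPA1B. HSPA6 had a match of 3 units that began at base -74 and a separate match of 2 units at -180. The divergent HSPA1L window shared 241 of its 250 positions with that of HSPA1A, and the same 2 units stood at -161 from its own start. For the constitutive HSPA8, 2 matches of 3 units were found, shown here in their immediate surroundings because its window is exonic in other annotated transcripts.
HSPA8 distal (chr11:123062346-123062374, minus strand): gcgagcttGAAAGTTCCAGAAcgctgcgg
HSPA8 proximal (chr11:123062171-123062199, minus strand): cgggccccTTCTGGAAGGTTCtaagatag
These matches began at bases -230 and -55, counted from the start that follows the window chr11:123062137-123062386. That start lies inside the gene span given above. Of the remaining members, HSPA4L had 1 match of 2 units in 1 of its 3 annotated windows, and HSPA2, HSPA4, HSPA9 and HSPA13 had none. Among 35114 promoters of the same length, 11.58% held a match of 2 units and 0.4414% a match of 3 units. The letters TATAAA stood in the last 60 bases before the start of HSPA1A and HSPA1B, as in 2.782% of promoters. A match describes these letters and does not show that a factor was bound.

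The near-identity of the 2 genes limits what their separate counts mean. Of all windows of 150 bases, the read length, in the exons of HSPA1A, 69.45% also occurred in HSPA1B, and 66.13% of the HSPA1B windows occurred in HSPA1A. Only uniquely aligned fragments were counted, so both genes were counted from the stretches in which they differ, and their levels are uncertain relative to other genes. In the 24 libraries, HSPA1A held between 46.7% and 54.0% of the summed counts of the pair. HSPA1B also shares 920 exon bases (36.55%) with an unnamed lncRNA on the same strand. Fragments on bases shared by 2 genes were left out as belonging to more than 1 gene, so HSPA1B was counted from its other exon bases, and the lncRNA itself had 0 counts in every library. HSPA6 shared 15.32% of its windows with the pseudogene HSPA7, and HSPA1L shared none with HSPA1A. HSPA8 shares 543 exon bases (11.2%) with a gene on the opposite strand, and since the counting used no strand information, fragments on these bases were left out as well.

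In Ctrl cells, HSPA8 was by far the most abundant member. Its exon counts were 733, 893 and 832 CPM in soluble Ctrl and 1246, 1433 and 1582 CPM in insoluble Ctrl. Per kilobase of exon, the mean soluble level of HSPA8 was 169 CPM, followed by HSPA4 (67.0), HSPA13 (50.4), HSPA9 (15.7), HSPA1A (11.5) and HSPA1B (10.8), all in CPM per kilobase. HSPA1L (0.514), HSPA6 (0.398), HSPA4L (0.0731) and HSPA2 (0.0176 CPM per kilobase) were close to the limit of detection. The insoluble order was HSPA8 (293), HSPA4 (57.7), HSPA13 (38.0), HSPA9 (30.8), HSPA1B (17.2) and HSPA1A (16.8 CPM per kilobase). HSPA1A and HSPA1B thus had low but measurable mRNA without stress, at a soluble ratio of the pair to HSPA8 of 0.132 ± 0.0117 (SD, n = 3) per kilobase. The kilobases are all exon bases annotated for a gene, 4849 for HSPA8 and 9782 for HSPA9 against 2404 for HSPA1A and 2517 for HSPA1B. Where transcripts hold only some of these bases, the level per kilobase is too low, so this order and ratio are uncertain.

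Of the 10 members, 8 reached the mean of 1 CPM over all libraries that was needed for testing. HSPA6 averaged 0.937 ± 0.181 CPM (SD, n = 3) in soluble Ctrl and passed this filter only through the groups in which it was high. HSPA2 never exceeded 0.665 CPM and HSPA4L never exceeded 2.25 CPM, their groups overlapped throughout the order of group means, and neither was tested on exon counts. Genes were called differentially expressed at an adjusted p under 0.05 (edgeR's quasi-likelihood test with Benjamini-Hochberg adjustment over all 17666 tested genes) together with a log2 fold change of 1 or more in size. Some counts of members are also given at an unadjusted p under 0.05. The share of all tested genes at that p is not given, so those counts stand without a background. In these bulk libraries, more cells carrying a transcript and more transcripts per cell cannot be told apart.

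The inducible members were lowest in Ctrl and highest in Combo in both fractions, with RK-33 alone in between and, for HSPA1A, HSPA1B and HSPA6, above NaAsO2 alone. HSPA1A had 27.3, 30.6 and 24.9 CPM in soluble Ctrl, 91.5, 78.7 and 96.0 CPM after NaAsO2, 298, 346 and 430.5 CPM after RK-33 and 1129, 1164 and 1277 CPM in Combo. Its insoluble values were 38.6, 41.3 and 40.8 CPM in Ctrl, 71.2, 71.3 and 134 CPM after NaAsO2, 279.9, 276 and 306 CPM after RK-33 and 620.2, 559 and 910.4 CPM in Combo. In both fractions the 4 treatments did not overlap, and the highest NaAsO2 and Combo values of the insoluble fraction were those of replicate 3. HSPA1B had 25.3, 30.8 and 25.3 CPM in soluble Ctrl, 89.1, 78.3 and 93.6 CPM after NaAsO2, 256, 295 and 381 CPM after RK-33 and 1086, 1181 and 1251 CPM in Combo. Its insoluble values were 44.1, 43.5 and 42.5 CPM, 70.4, 68.3 and 150.02 CPM, 306, 284 and 314 CPM and 587, 526 and 848 CPM in the same order of treatments. The pattern was that of HSPA1A, with the order of the groups identical for both genes and overlaps only between the fractions of NaAsO2 and between those of RK-33.

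HSPA6 started from a few counts and had the widest range of the tested members as a ratio of its highest to its lowest value. Its soluble values were 0.745, 1.10 and 0.963 CPM in Ctrl, 4.40, 3.89 and 5.14 CPM after NaAsO2, 14.4, 16.1 and 24.97 CPM after RK-33 and 204, 209.7 and 247 CPM in Combo. The insoluble values were 1.08, 1.71 and 1.83 CPM, 5.34, 4.77 and 11.1 CPM, 17.4, 18.6 and 21.7 CPM and 138, 99.5 and 186 CPM, again without overlap between the treatments of a fraction. HSPA1L, the divergent neighbour of HSPA1A, moved in the same direction at a level that stayed far lower, with 1.30, 1.56 and 1.39 CPM in soluble Ctrl, 3.73, 3.89 and 3.31 CPM after NaAsO2, 4.04, 4.12 and 4.94 CPM after RK-33 and 18.6, 16.6 and 17.4 CPM in Combo. Insoluble HSPA1L reached 7.20, 6.38 and 6.95 CPM in Combo from 1.52, 1.31 and 1.64 CPM in Ctrl, and its NaAsO2 (3.84, 2.25 and 2.13 CPM) and RK-33 (2.92, 3.04 and 2.87 CPM) values overlapped.

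**Figure D1:**
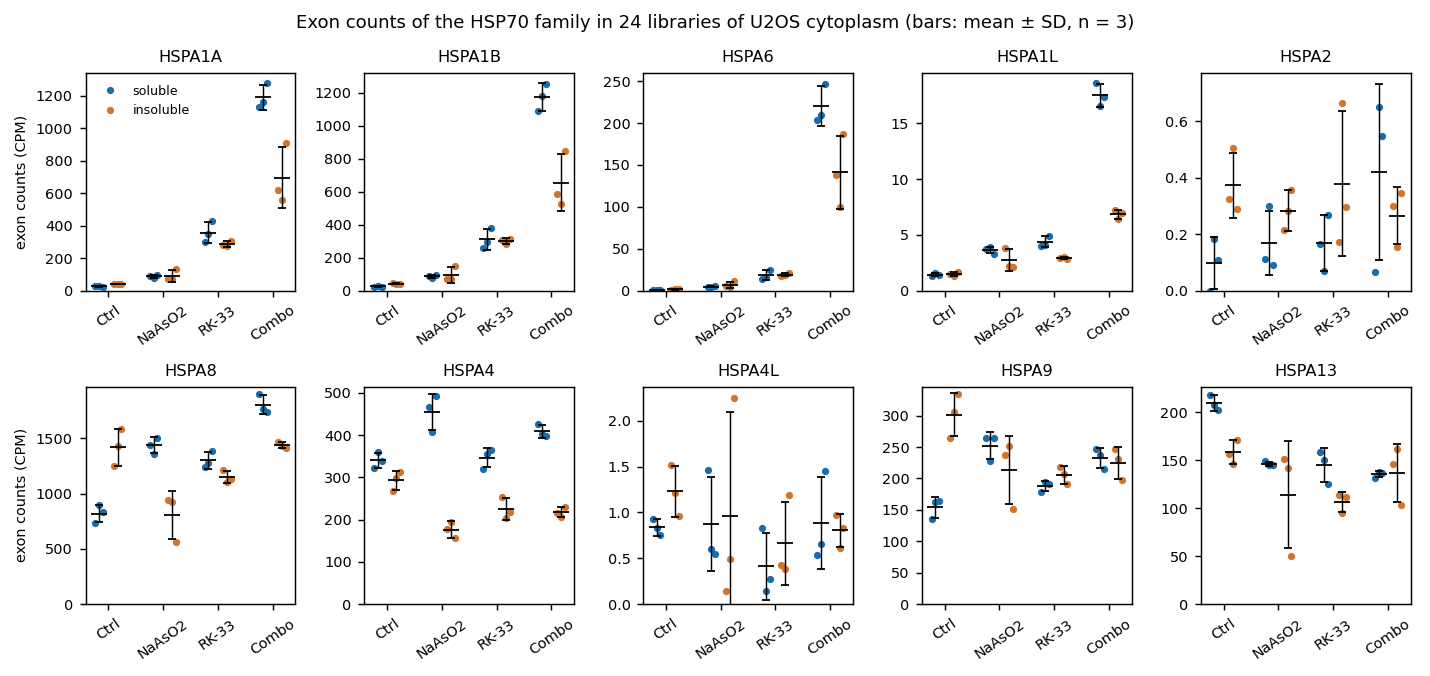
Exon counts of the 10 HSP70 members in CPM (each panel with its own linear axis) in the 8 groups, with a point per library and bars for the mean ± SD (n = 3). The group means of HSPA1A, HSPA1B, HSPA6 and HSPA1L increased from Ctrl to Combo in both fractions, for HSPA1A from a mean of 27.6 to 1190.0 CPM in the soluble fraction, whereas HSPA4, HSPA9 and HSPA13 stayed between 107 and 455 CPM.

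NaAsO2 was compared with Ctrl to see the response to the stressor. The study's methods name DMSO for Ctrl and for the RK-33 stock, and not for cells that received NaAsO2 alone. Comparisons with the NaAsO2 groups may therefore also differ in DMSO. In the soluble fraction, 4 of the 8 tested members were called higher, where 0.492% of all tested genes were called higher. HSPA6 had the largest log2 fold change of the members, 2.25 (SE 0.41, adjusted p = 0.000911), a 4.75-fold difference. HSPA1A rose by 1.68 (SE 0.21, adjusted p = 2.4e-05), HSPA1B by 1.68 (SE 0.23, adjusted p = 7.81e-05) and their sum by 1.68 (SE 0.22, adjusted p = 3.54e-05), which is 3.21-fold. HSPA1L rose by 1.35 (SE 0.22, adjusted p = 0.000403). The median log2 fold change of the 8 members was 1.08, against 0.033 over all tested genes. For insoluble RNA, 3 members were called higher where 5.61% of tested genes were, namely HSPA6 at 2.13 (SE 0.35, adjusted p = 8.54e-05), HSPA1A at 1.19 (SE 0.21, adjusted p = 0.000128) and HSPA1B at 1.14 (SE 0.23, adjusted p = 0.000475), and the sum rose by 1.17 (SE 0.22, adjusted p = 0.000229). HSPA1L stayed under the fold limit at 0.90 (SE 0.22, adjusted p = 0.00292). Without replicate 3 of the NaAsO2 insoluble group, HSPA1A at 0.89 (adjusted p = 5.84e-05), HSPA1B at 0.74 (adjusted p = 0.000493) and the sum at 0.82 (adjusted p = 0.000135) were no longer past the fold limit, while HSPA1L at 1.09 (adjusted p = 0.000819) was, and HSPA6 was called either way.

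RK-33 alone was compared with Ctrl to see whether the inhibitor acts on these genes without a stressor. The inducible members rose in both fractions. In the soluble fraction, 4 members were called higher (0.283% of tested genes). The sum of HSPA1A and HSPA1B rose by 3.61 (SE 0.23, adjusted p = 2.02e-09), 12.2-fold, HSPA6 by 4.28 (SE 0.36, adjusted p = 1.2e-07) and HSPA1L by 1.61 (SE 0.21, adjusted p = 0.000105). HSPA1A alone rose by 3.70 (SE 0.22, adjusted p = 4.87e-10) and HSPA1B alone by 3.52 (SE 0.25, adjusted p = 6.35e-09). Insoluble RNA had 3 members called higher (0.702% of tested genes), HSPA1A by 2.83 (SE 0.22, adjusted p = 2.37e-08), HSPA1B by 2.80 (SE 0.24, adjusted p = 6.63e-08) and HSPA6 by 3.62 (SE 0.33, adjusted p = 1.58e-07), and the sum by 2.82 (SE 0.23, adjusted p = 4.17e-08). HSPA1L, at 0.98 (SE 0.22, adjusted p = 0.00469), just missed the fold limit. Both comparisons used the same Ctrl libraries, and the libraries of RK-33 and of NaAsO2 did not overlap in either fraction for HSPA1A, HSPA1B or HSPA6. The difference between RK-33 and NaAsO2 was not tested.

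Combo was compared with NaAsO2, which asked what RK-33 changed in stressed cells, and with RK-33, which asked what stress added to the inhibitor. Against NaAsO2, 4 members were called higher in the soluble fraction (2.41% of tested genes). The summed pair rose by 3.75 (SE 0.23, adjusted p = 4.52e-10), 13.4-fold, HSPA6 by 5.61 (SE 0.30, adjusted p = 3.24e-11), 48.9-fold, and HSPA1L by 2.267 (SE 0.18, adjusted p = 1.72e-08). In the insoluble fraction the same 4 were called higher (3.11% of tested genes), with 2.84 (SE 0.22, adjusted p = 2.65e-08) for the sum, 4.37 (SE 0.28, adjusted p = 6.84e-10) for HSPA6 and 1.29 (SE 0.18, adjusted p = 0.000105) for HSPA1L. When only the 2 compared insoluble groups were fitted, HSPA6 at 4.36 (adjusted p = 0.0261) and HSPA1A at 2.94 (adjusted p = 0.0307) were still called, but HSPA1B at 2.80 (adjusted p = 0.0505), HSPA1L at 1.31 (adjusted p = 0.217) and the sum at 2.84 (adjusted p = 0.0565) were not. Against RK-33, 4 members were called higher in the soluble (1.83% of tested genes) and 4 in the insoluble fraction (1.23%). HSPA6 rose by 3.58 (SE 0.26, adjusted p = 3.71e-09) (soluble) and 2.88 (SE 0.25, adjusted p = 1.21e-07) (insoluble). HSPA1L rose by 2.00 (SE 0.17, adjusted p = 6.56e-08) and 1.22 (SE 0.19, adjusted p = 0.000193). The summed pair rose by 1.82 (SE 0.22, adjusted p = 9.05e-06) and 1.197 (SE 0.21, adjusted p = 0.00103), and without replicate 3 of the Combo insoluble group the insoluble differences of the sum, 0.96 (adjusted p = 0.00634), and of HSPA1B, 0.89 (adjusted p = 0.0169), were under the fold limit.

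**Figure D2:**
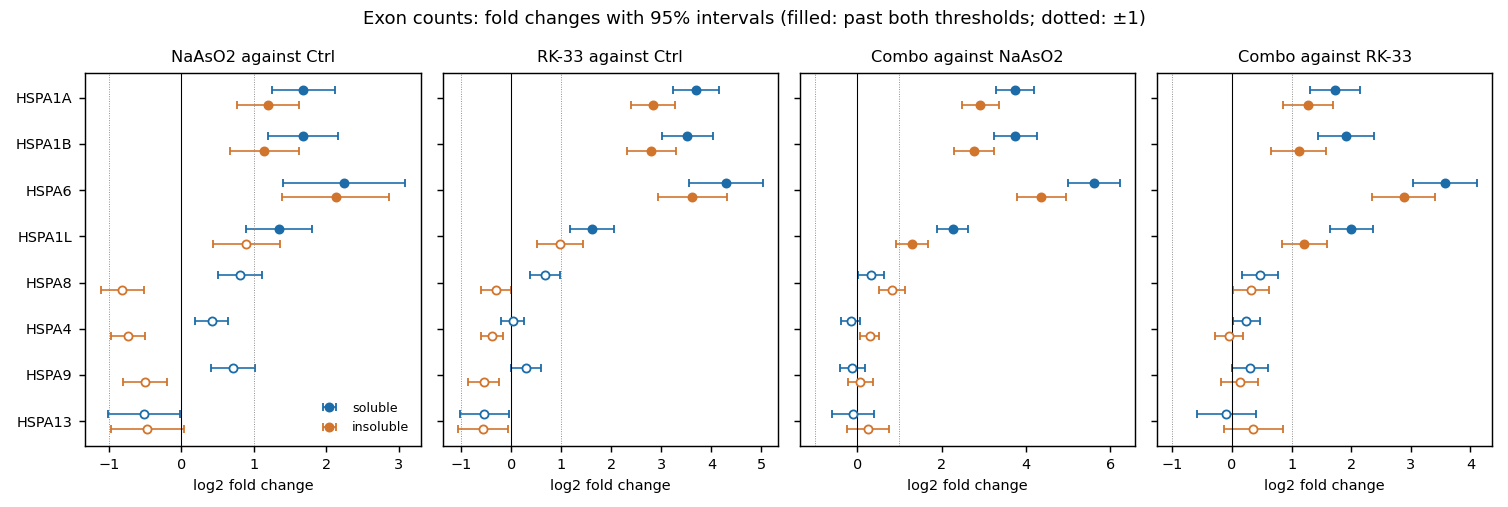
Log2 fold changes of the 8 tested HSP70 members in the 4 treatment comparisons (panels) of each fraction (colours), with bars for 95% intervals and filled points for values past both thresholds. HSPA6 reached 5.61 and HSPA1A 3.75 in soluble Combo against NaAsO2, whereas HSPA4, HSPA8, HSPA9 and HSPA13 lay within 1 log2 unit of 0 in every panel.

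Whether the fold change with NaAsO2 differed when RK-33 was present was tested with an interaction term. This term is the log2 NaAsO2 effect in the presence of RK-33 minus that in its absence. For the summed pair it was 0.14 on the log2 scale in the soluble fraction (95% interval -0.48 to 0.76, adjusted p = 0.851) and 0.028 in the insoluble fraction (95% interval -0.59 to 0.65, adjusted p = 0.965). These intervals include 0, at which the fold changes of the 2 agents multiply, and departures from it up to their bounds. For HSPA6 the term was 1.33 (95% interval 0.25 to 2.41, adjusted p = 0.186) in the soluble and 0.75 (95% interval -0.19 to 1.69, adjusted p = 0.288) in the insoluble fraction. No member was called in the soluble fraction by edgeR or DESeq2, where 0.957% of tested genes were called in either direction and 2 of the 8 members had an unadjusted p under 0.05, although HSPA6 was called at 1.39 (adjusted p = 0.0356) when only the 4 soluble groups were fitted. HSPA6 rested on 8, 12 and 9 exon counts in the soluble Ctrl libraries.

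In the insoluble fraction, HSPA8 was the only member called for the interaction (2.48% of tested genes were called higher). HSPA8 had 943, 926 and 559 CPM in insoluble NaAsO2, below every Ctrl library (1246, 1433 and 1582 CPM), whereas insoluble Combo (1469, 1432 and 1418 CPM) lay above RK-33 (1214, 1109.8 and 1131 CPM). The NaAsO2 effect on insoluble HSPA8 was -0.81 (SE 0.15, adjusted p = 0.00018) without and 0.32 (SE 0.14, adjusted p = 0.206) with RK-33, and the difference between them 1.13 (SE 0.21, adjusted p = 0.00128). It was no longer past the thresholds without replicate 3 of the NaAsO2 insoluble group, at 0.86 (adjusted p = 0.000197), or with only the 4 insoluble groups fitted, at 1.08 (adjusted p = 0.0575).

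HSPA8 in the soluble fraction followed the inducible members in direction but not in size. It had 733, 893 and 832 CPM in Ctrl, 1444, 1362 and 1506 CPM after NaAsO2, 1238, 1281 and 1388 CPM after RK-33 and 1903, 1767 and 1743 CPM in Combo. Every treated library was above every Ctrl library. The log2 differences were 0.81 (SE 0.15, adjusted p = 0.000847) for NaAsO2 and 0.67 (SE 0.15, adjusted p = 0.00751) for RK-33 against Ctrl, past the p threshold but under the fold limit, and 0.33 (SE 0.14, adjusted p = 0.18) for Combo against NaAsO2. The mean soluble level of HSPA8 was 819.6 ± 80.6 CPM in Ctrl and 1804 ± 86.4 CPM in Combo, while that of the summed pair was 54.8 ± 5.93 and 2363 ± 157 CPM (SD, n = 3 each).

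None of the other constitutive members was called in any of the 8 treatment comparisons. With NaAsO2 against Ctrl, HSPA4 and HSPA9 passed the p threshold in both fractions but stayed under the fold limit. HSPA4 had 322, 359 and 339.7 CPM in soluble Ctrl and 466, 408 and 492 CPM after NaAsO2, at a log2 difference of 0.42 (SE 0.11, adjusted p = 0.0137). In the insoluble fraction HSPA4 had 269, 298 and 312 CPM in Ctrl and 178, 194 and 156 CPM after NaAsO2, at -0.73 (SE 0.11, adjusted p = 2.94e-05). HSPA4 was therefore above Ctrl in all 3 soluble and below Ctrl in all 3 insoluble NaAsO2 libraries. The mitochondrial HSPA9 had 135, 162 and 164 CPM in soluble Ctrl and 265, 227 and 265 CPM after NaAsO2, at 0.71 (SE 0.15, adjusted p = 0.00281). Its insoluble values were 265, 306 and 334 CPM in Ctrl and 237, 251 and 152 CPM after NaAsO2, at -0.50 (SE 0.15, adjusted p = 0.00926). HSPA13 had its highest soluble values in Ctrl, 218, 207 and 202 CPM, and 149, 144 and 145 CPM after NaAsO2, 159, 150.5 and 125 CPM after RK-33 and 132, 137 and 137 CPM in Combo. All 9 treated soluble libraries of HSPA13 lay below the Ctrl libraries, and the log2 differences from Ctrl, -0.52 for NaAsO2 and -0.53 for RK-33, did not pass the test (adjusted p = 0.152 and 0.24). Insoluble HSPA13 after NaAsO2 had 151, 142 and 49.6 CPM, where the low value is again replicate 3.

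Soluble and insoluble fractions were compared within each treatment to see in which compartment the mRNAs were recovered. CPM are shares of each fraction's RNA, so a higher share in the pellet does not say that more molecules were there. In Ctrl cells no member was called by edgeR or DESeq2 (22.5% of tested genes were called in either direction, and 4 of the 8 members had an unadjusted p under 0.05), although HSPA9 at 0.97 (SE 0.15, adjusted p = 1.28e-05) and HSPA8 at 0.79 (SE 0.15, adjusted p = 0.000111) were higher in the insoluble fraction below the fold limit. HSPA9 passed it without replicate 3 of soluble Ctrl, at 1.02 (adjusted p = 7.48e-05), or replicate 1 of insoluble Ctrl, at 1.06 (adjusted p = 2.14e-05). After NaAsO2, 1 member was called lower in the insoluble fraction (16% of tested genes), HSPA4 at -1.37 (SE 0.11, adjusted p = 6.23e-10), and HSPA8 had -0.83 (SE 0.15, adjusted p = 4.16e-05). After RK-33 no member was called by either tool (30.7% of tested genes in either direction, 2 members at an unadjusted p under 0.05), with HSPA4 at -0.63 (SE 0.11, adjusted p = 4.81e-05). In Combo, 1 member was called lower in the insoluble fraction (13.1% of tested genes), HSPA1L at -1.35 (SE 0.16, adjusted p = 4.4e-07).

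The summed pair showed no called difference between the fractions in any treatment. Its log2 difference was 0.61 (SE 0.22, adjusted p = 0.0224) in Ctrl, 0.099 (SE 0.21, adjusted p = 0.71) after NaAsO2, -0.18 (SE 0.21, adjusted p = 0.461) after RK-33 and -0.81 (SE 0.21, adjusted p = 0.00271) in Combo. The value after NaAsO2 changed sign without replicate 3 of the insoluble group, to -0.28 (adjusted p = 0.122). In Combo, all 3 insoluble values (1207, 1085 and 1759 CPM) lay below all 3 soluble values (2215, 2345 and 2528 CPM), and without replicate 3 of the insoluble group the difference of -1.10 (adjusted p = 0.000217) was called, as were those of HSPA1A at -1.07 (adjusted p = 0.000125), HSPA1B at -1.13 (adjusted p = 0.000294) and HSPA4 at -1.01 (adjusted p = 1.98e-06). HSPA6 in Combo had 204, 209.7 and 247 CPM in its soluble and 138, 99.5 and 186 CPM in its insoluble libraries, at -0.64 (SE 0.23, adjusted p = 0.024).

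For 3 constitutive members, the insoluble relative to the soluble level was lower after NaAsO2 than in Ctrl. The insoluble minus soluble difference after NaAsO2 minus that in Ctrl was called lower for these 3 members and higher for none, where 4.99% of tested genes were called lower. It was -1.62 (SE 0.21, adjusted p = 1.06e-05) for HSPA8, -1.21 (SE 0.21, adjusted p = 0.000241) for HSPA9 and -1.15 (SE 0.16, adjusted p = 2.19e-05) for HSPA4. Without replicate 3 of the NaAsO2 insoluble group, HSPA8 was still called at -1.33 (adjusted p = 1.52e-07), and HSPA4 at -0.99 (adjusted p = 8.9e-06) and HSPA9 at -0.94 (adjusted p = 3.36e-05) were just under the fold limit. For the inducible members the change was -0.51 (SE 0.30, adjusted p = 0.232) for the sum and -0.12 (SE 0.55, adjusted p = 0.901) for HSPA6, and HSPA13 had 0.054 (SE 0.34, adjusted p = 0.927).

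The same difference between Combo and NaAsO2 was called for no member by edgeR without a block, and 0.142% of tested genes were called in either direction. The inducible members had the lowest values, -1.24 (SE 0.38, adjusted p = 0.154) for HSPA6, -0.97 (SE 0.26, adjusted p = 0.0919) for HSPA1L and -0.91 (SE 0.30, adjusted p = 0.188) for the sum, while HSPA8 had 0.50 (SE 0.20, adjusted p = 0.295). At an unadjusted p under 0.05, 6 of the 8 members differed, in both directions. HSPA6, HSPA1L, HSPA1A and HSPA1B were lower, and HSPA4 (0.46) and HSPA8 were higher. Same-numbered NaAsO2 and Combo insoluble libraries deviated together, and with the replicate number as a block HSPA6 was called lower, at -1.27 (adjusted p = 0.0288). Single libraries also changed this result. Without replicate 3 of the Combo insoluble group, HSPA6 at -1.55 (adjusted p = 0.0269), HSPA1L at -1.05 (adjusted p = 0.0431), HSPA1A at -1.12 (adjusted p = 0.0268) and HSPA1B at -1.27 (adjusted p = 0.0289) were called lower. Without replicate 1 of the NaAsO2 insoluble group 3 members were called, without its replicate 3 only HSPA1L at -1.18 (adjusted p = 0.015), and DESeq2 called 1, HSPA1L at -1.02 (adjusted p = 0.0347).

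**Figure D3:**
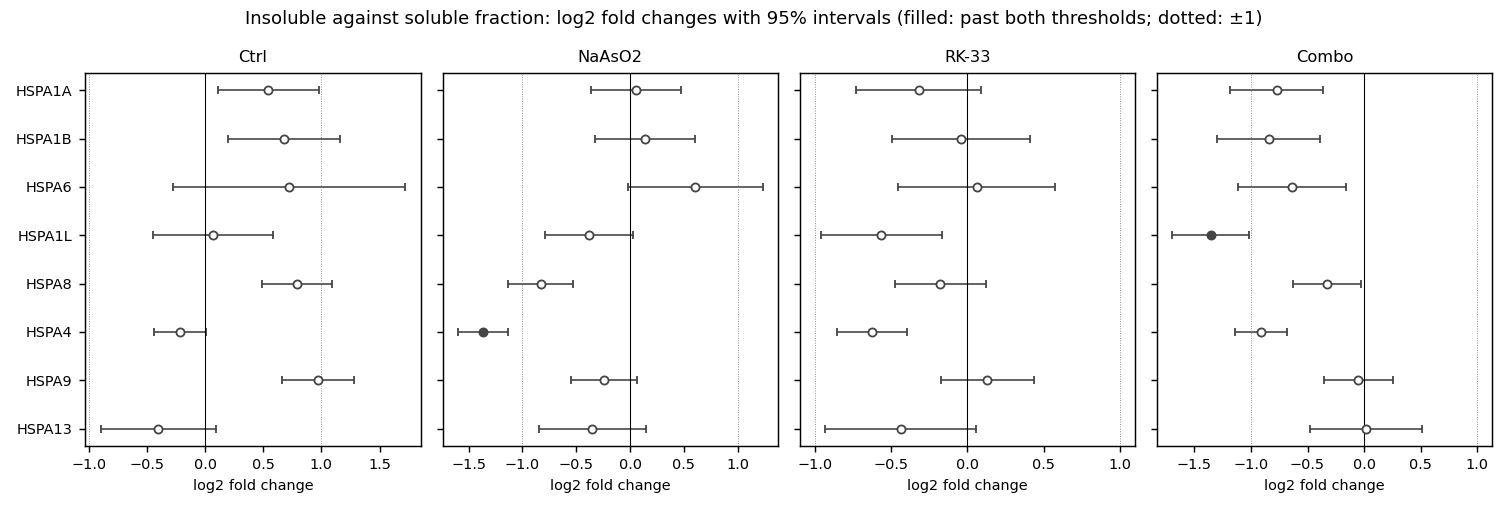
Insoluble minus soluble log2 differences of the 8 tested HSP70 members in the 4 treatments (panels), with bars for 95% intervals and filled points for values past both thresholds. HSPA8 went from 0.79 in Ctrl to -0.83 after NaAsO2, and HSPA1A from 0.54 in Ctrl to -0.77 in Combo.

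The makeup of the family transcript pool changed with these shifts. All 10 members together made up 1581 ± 111 CPM of the soluble libraries in Ctrl, 2476 ± 153 CPM after NaAsO2, 2674 ± 222 CPM after RK-33 and 5183 ± 91.4 CPM in Combo (SD, n = 3 each). HSPA1A and HSPA1B contributed 3.46 ± 0.269% of this total in Ctrl, 7.09 ± 0.251% after NaAsO2, 24.9 ± 2.76% after RK-33 and 45.6 ± 2.39% in Combo. HSPA8 contributed 51.8 ± 1.51%, 58.1 ± 0.826%, 48.8 ± 1.25% and 34.8 ± 2.02% in the same order. The pair thus went from a small part of the soluble pool in Ctrl to the largest part in soluble Combo. Per kilobase, the ratio of the pair to HSPA8 was 0.241 ± 0.0117 after NaAsO2, 1.01 ± 0.136 after RK-33 and 2.59 ± 0.283 in Combo. These ratios are too high where HSPA8 transcripts hold fewer than the 4849 exon bases annotated for the gene. The insoluble total was 2261 ± 232 CPM in Ctrl, 1512 ± 257 CPM after NaAsO2, 2301 ± 104 CPM after RK-33 and 3518 ± 348 CPM in Combo, with 3.72 ± 0.368%, 13.4 ± 8.61%, 25.6 ± 1.34% and 38.0 ± 6.20% from the pair. The NaAsO2 share rested on replicate 3, as the libraries had 8.53, 8.41 and 23.4%, with a mean of 8.47% without it. HSPA8 contributed 62.7 ± 1.04%, 52.8 ± 5.98%, 50.05 ± 0.706% and 41.2 ± 4.29% of the insoluble total. In insoluble Combo the mean share of HSPA8 was above that of the pair, and only in replicate 3 was the pair the larger part. Fragments that fit both HSPA1A and HSPA1B were not counted, so the shares and ratios of the pair may be too low. Its order against HSPA8 in insoluble Combo is therefore uncertain. Of the treated insoluble groups, NaAsO2 alone had a mean total below that of Ctrl, also without replicate 3 (1660.3 CPM), and it was the insoluble group in which HSPA8 was lowest.

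**Figure D4:**
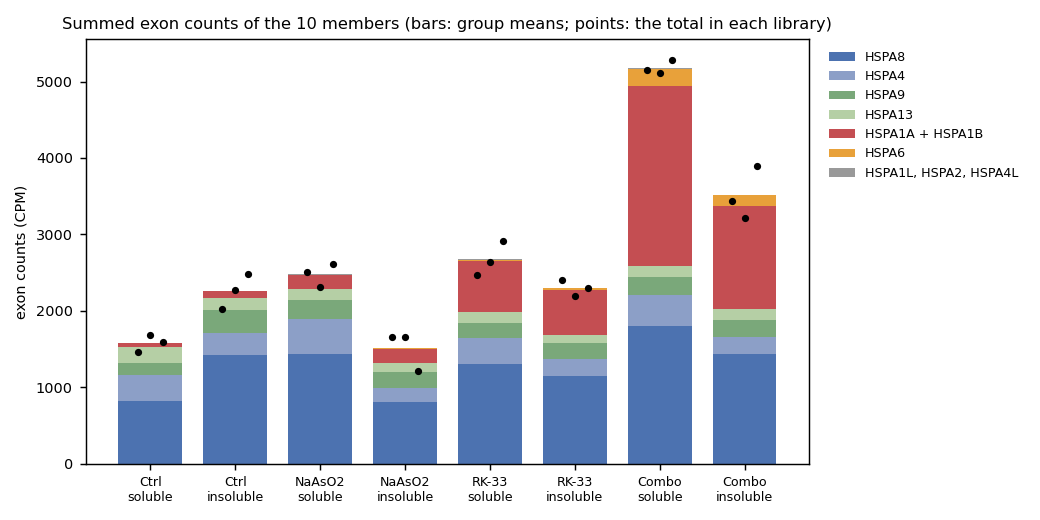
Summed exon counts of the 10 HSP70 members in CPM by group, stacked by member, with bars for group means (n = 3) and points for the totals of single libraries. The soluble total went from 1581 CPM in Ctrl to 5183 CPM in Combo, where 45.6% came from HSPA1A and HSPA1B.

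Intron counts, which can come from unspliced RNA, excised introns or other transcripts made within an intron, could be examined for the members with introns. Of the 7 with an intron entry, 6 reached a mean of 1 CPM of intron counts, HSPA1L, HSPA4, HSPA4L, HSPA8, HSPA9 and HSPA13. The introns of HSPA8 had 10.2, 9.67 and 6.15 CPM of intron counts in soluble Ctrl, 18.6, 23.4 and 24.9 CPM after NaAsO2, 25.04, 30.1 and 36.5 CPM after RK-33 and 85.1, 69.1 and 62.1 CPM in Combo. Their insoluble values were 12.3, 12.6 and 9.13 CPM in Ctrl, 38.5, 28.8 and 85.9 CPM after NaAsO2, 47.1, 49.8 and 50.01 CPM after RK-33 and 101, 97.1 and 93.3 CPM in Combo. Every treated library exceeded every Ctrl library in both fractions, including insoluble NaAsO2, where the exon counts of HSPA8 were lowest among the insoluble groups. Introns were defined without the exons of other genes, so the small nucleolar RNA genes inside HSPA8 were not part of its introns. Only 728 bases of HSPA8 counted as intron, against 4849 exon bases, and the soluble Ctrl libraries had 34, 26 and 17 counts on them. Fragments from an intron that is exon in another annotated transcript were counted as exon, so the 2 counts do not cleanly separate spliced from unspliced RNA. HSPA1L introns had 5.42, 3.72 and 2.89 CPM in soluble Ctrl, 19.7, 19.96 and 17.1 CPM after NaAsO2, 19.3, 19.99 and 33.1 CPM after RK-33 and 75.7, 78.0 and 53.9 CPM in Combo. Strand was not used in the counting, so fragments from HSPA1L and from any RNA antisense to it cannot be told apart. HSPA4 introns had 119.9, 105 and 108 CPM in soluble Ctrl, 129.9, 136 and 130.2 CPM after NaAsO2, 212, 219 and 257 CPM after RK-33 and 372, 387 and 339 CPM in Combo, so that they rose with RK-33 while the HSPA4 exon counts did not pass the thresholds.

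Among members' introns, 2 were called higher with NaAsO2 in the soluble fraction (0.925% of tested introns), HSPA8 at 1.36 (SE 0.32, adjusted p = 0.00976) and HSPA1L at 2.21 (SE 0.34, adjusted p = 0.000157). The same 2 were called higher in the insoluble fraction (10.1% of tested introns), at 2.15 (SE 0.27, adjusted p = 2.01e-06) and 3.61 (SE 0.61, adjusted p = 0.000105) respectively. HSPA1L introns had 0, 3 and 1 counts in the insoluble Ctrl libraries and 19, 5 and 15 counts after NaAsO2, so the size of this fold change is uncertain. With RK-33, 3 were called higher in the soluble (0.62% of tested introns) and 3 in the insoluble fraction (0.689%), HSPA1L at 2.53 and 2.49, HSPA8 at 1.79 and 2.10 and HSPA4 at 1.04 and 1.26. Without replicate 3 of soluble RK-33 the soluble HSPA4 difference, 0.96 (adjusted p = 0.0377), was under the fold limit. In Combo against NaAsO2, the introns of HSPA1L (1.87), HSPA8 (1.68) and HSPA4 (1.47) were called higher in the soluble fraction (5.37% of tested introns). For insoluble introns 3 were called (6.34%), HSPA1L at 1.38 (SE 0.34, adjusted p = 0.00332), HSPA13 at 1.09 (SE 0.23, adjusted p = 0.00087) and HSPA4L at 1.88 (SE 0.40, adjusted p = 0.000961). Replicate 3 of the insoluble NaAsO2 group had more intron counts than its other 2 libraries for HSPA8, HSPA4 and HSPA9, and without it 5 members' introns were called in this last comparison, whereas without replicate 3 of insoluble Combo HSPA13 at 0.95 (adjusted p = 0.00469) was under the fold limit. Of the nuclear RNAs examined, MALAT1 averaged 5949 CPM in insoluble Ctrl, 1913 CPM after NaAsO2, 4415 CPM after RK-33 and 4241 CPM in Combo. NEAT1 averaged 1712, 928, 2471 and 1413 CPM and KCNQ1OT1 54.7, 37.2, 64.3 and 136 CPM in the same order, while MEG3 did not exceed 0.107 CPM in any library. All 3 detected RNAs were thus lower in insoluble NaAsO2 than in insoluble Ctrl and higher in insoluble Combo than in insoluble NaAsO2, and NEAT1 and KCNQ1OT1 were higher after RK-33 than in Ctrl. In the soluble fraction MALAT1 averaged 12519, 7074, 10103.5 and 9806 CPM in the same order, lower than Ctrl in each treated group. Soluble NEAT1 averaged 478, 333, 481 and 634 CPM and soluble KCNQ1OT1 16.5, 14.7, 14.8 and 47.8 CPM. In every treatment MALAT1 was higher in the soluble than in the insoluble fraction, and NEAT1 and KCNQ1OT1 were lower. The part of these RNAs in the intron values was not tested.

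**Figure D5:**
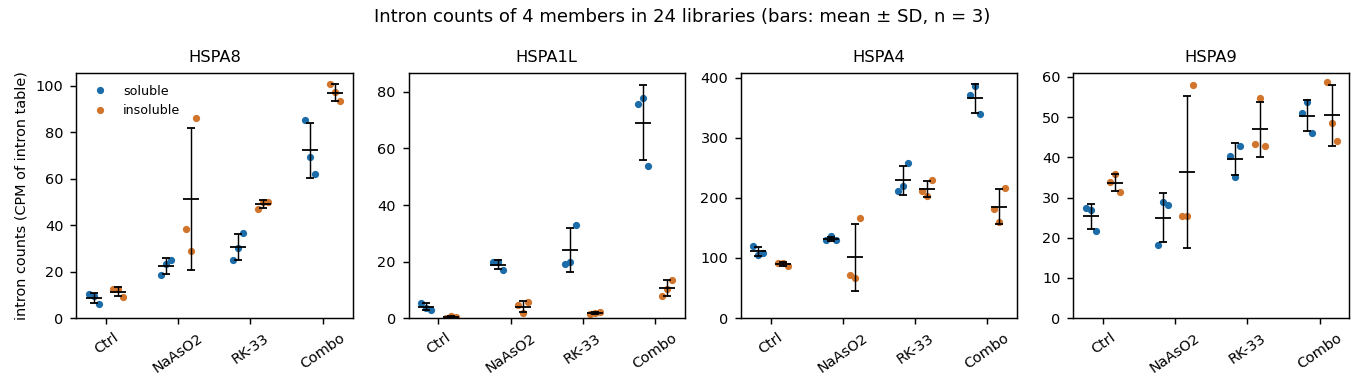
Intron counts in CPM (linear axes) of HSPA8, HSPA1L, HSPA4 and HSPA9 in the 8 groups, with a point per library and bars for the mean ± SD (n = 3). HSPA8 introns went from a mean of 8.69 CPM in soluble Ctrl to 72.1 CPM in soluble Combo.

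The partners of HSP70 were examined as lists. Of 15 J-domain proteins, all tested, none was called in soluble NaAsO2 against Ctrl and 1 was called higher in the insoluble fraction, a share near the 5.61% over all tested genes, DNAJB1 at 1.13 (SE 0.15, adjusted p = 5.14e-06). DNAJB1 is the main cytosolic J-domain partner of the stress-inducible HSP70. With RK-33, 2 were called higher in the soluble fraction (0.283% of tested genes), DNAJB1 at 1.66 (SE 0.15, adjusted p = 3.49e-07) and DNAJA4 at 1.30 (SE 0.15, adjusted p = 2.46e-05), and 3 in the insoluble fraction (0.702%), DNAJA4 at 1.96 (SE 0.16, adjusted p = 3.9e-08), DNAJB1 at 1.71 (SE 0.15, adjusted p = 7.9e-08) and DNAJB6 at 1.14 (SE 0.10, adjusted p = 1.03e-07). In Combo against NaAsO2, 3 soluble (2.41% of tested genes) and 4 insoluble differences (3.11%) were called higher, led by DNAJA4 at 2.86 and 3.61 and DNAJB1 at 2.03 and 1.86. No J-domain gene was called lower in a treatment comparison, and the list median in soluble Combo against NaAsO2 was 0.057, against -0.037 over all tested genes. For DNAJA4 the interaction of the 2 agents was called in both fractions, at 1.56 (SE 0.21, adjusted p = 0.000698) and 1.66 (SE 0.21, adjusted p = 6.5e-05), so its response to NaAsO2 was larger with RK-33 than without. Between fractions, J-domain genes were called lower in the insoluble fraction in 1 case in Ctrl (10.7% of tested genes), 4 after NaAsO2 (16%), 3 after RK-33 (15.2%) and 2 in Combo (13.1%), among them DNAJC8, a nuclear splicing-associated J-domain protein, at -1.31 in Ctrl and -2.22 after NaAsO2. In Ctrl, RK-33 and Combo the shares of the 15 genes were near those of all genes. A single J-domain gene was called higher in the insoluble fraction after NaAsO2 (14.6% of tested genes) and in Combo (10%), DNAJC5, a protein of synaptic and secretory vesicles named here after its values were seen, at 1.58 and 1.23.

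Of 10 nucleotide exchange factors, BAG3, which couples HSP70 to autophagy, was called higher with RK-33 in the soluble fraction (0.283% of tested genes), at 1.12 (SE 0.11, adjusted p = 1.79e-06). In Combo against NaAsO2, 2 were called higher in the soluble (2.41% of tested genes) and 2 in the insoluble fraction (3.11%). BAG3 had 1.67 (SE 0.11, adjusted p = 7.8e-10) for soluble and 1.18 (SE 0.11, adjusted p = 2.3e-07) for insoluble RNA, and HSPH1 (HSP110) had 1.15 (SE 0.096, adjusted p = 3.73e-08) and 1.63 (SE 0.097, adjusted p = 2.31e-10). In insoluble NaAsO2 against Ctrl, where 5.61% of tested genes were called higher, BAG1 was called at 1.40 (SE 0.33, adjusted p = 0.00205). The highest BAG1 value, 89.9 CPM, was that of replicate 3 of insoluble NaAsO2. The group means were 46.0 CPM in insoluble NaAsO2 and 17.1 CPM in insoluble Ctrl, so this call leans on a single library. The other 7 were called in no treatment comparison. HSP90 chaperones receive clients from HSP70. In all 4 the insoluble minus soluble difference was called lower after NaAsO2 than in Ctrl, HSP90AB1 by -1.43 (SE 0.18, adjusted p = 7.81e-06), HSP90B1 by -1.43 (SE 0.17, adjusted p = 6.04e-06) and TRAP1 by -1.23 (SE 0.17, adjusted p = 2.14e-05) among them (4.99% of tested genes), with a list median of -1.33 against -0.022 over all tested genes. Replicate 3 of insoluble NaAsO2 held the lowest HSP90AA1 (394 CPM) and HSP90B1 (152 CPM) values of all libraries. The means of that group were 579 and 199 CPM. No fit without this library was kept for the list, so whether all 4 would still be called is not known. Of 5 other cochaperones, 3 were called lower in the insoluble than in the soluble fraction in Ctrl (10.7% of tested genes) and in Combo (13.1%) and 4 after NaAsO2 (16%) and after RK-33 (15.2%), among them ST13 at -1.03, -1.30, -1.78 and -1.53. In insoluble NaAsO2 against Ctrl, the endoplasmic reticulum HSP90B1 fell, at -1.65 (SE 0.12, adjusted p = 2.89e-09), and the ubiquitin ligase STUB1, which tags HSP70 clients, was called higher, at 1.01 (SE 0.38, adjusted p = 0.0343). The highest STUB1 value, 63.1 CPM, was that of replicate 3 of insoluble NaAsO2. The group means were 31.1 CPM in insoluble NaAsO2 and 15.2 CPM in insoluble Ctrl, so this call leans on a single library. Neither of the heat shock factors HSF1 and HSF2 was called in any comparison, and the largest difference of HSF1 was that between fractions after RK-33, -0.75 (SE 0.20, adjusted p = 0.00259).

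The genes whose log2(CPM + 1) was most like that of the summed pair over the 24 libraries, among the 10253 non-members that averaged 10 CPM or more, were NFKBIZ (Pearson r = 0.958), DNAJB1 (0.942), BAG3 (0.939), ATF3 (0.913) and DDIT3 (0.912). For HSPA8 they were KIF20A (0.923), HSP90AB1 (0.888), OAT (0.878), RABGAP1L (0.863) and HSP90AA1 (0.861). The libraries of a group share their treatment and fraction, so these values describe similar patterns over 8 groups. The lists for the inducible pair and for HSPA8 had no gene in common.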

How the data were processed

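Soluble and insoluble cytoplasmic RNA of 12 U2OS lysates was sequenced as 24 rRNA-depleted, directional libraries. According to the study's methods, reads were aligned to GRCh38 with STAR 2.7.2b and counted with featureCounts 1.5.3 on GENCODE 40. The authors deposited raw counts of uniquely aligned fragments on exons and, separately, on introns (genes without merged exons, minimum overlap 25 bases), without strand and without fragments on more than 1 gene. The exon tables held 8627294 to 15376554 counts per library, and a floor of 3 counts limits what is detectable. Groups came from the labels. Genes on several lines (1 in the exon and 21 in the intron table) were rejoined.

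Genes averaging 1 CPM or more (17666 exon and 17406 intron entries) were TMM-scaled and tested with edgeR 4.0.16 (glmQLFit and glmQLFTest, all 24 libraries in 8 groups, R 4.3.3), which was tested on simulated data. DESeq2 1.42.0, edgeR's likelihood ratio test (which the paper names), other scalings, filters, fold limits, blocks and left-out libraries were alternatives. The SE is the log2 fold change divided by the square root of F. Sequences came from RefSeq GRCh38.p14. Python 3.11.15 was used otherwise. All 10 members are named, at most 3 genes of each partner list per comparison by adjusted p (with DNAJC5 added), and the 5 genes most like the pair and most like HSPA8. Members and lists were chosen with earlier results of these data known. Both fractions of a replicate came from 1 lysate, but their deviations from group means correlated over 0.1 in only 2 of 12 lysates. Same-numbered NaAsO2 and Combo insoluble libraries deviated together (0.460 to 0.711), while other treatment pairs did not do so in all 3 replicates.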

Additional observations from a re-analysis of the deposited data

Results flagged for a closer look

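Effects that differed between groups by a test of the difference are listed here. The insoluble minus soluble log2 difference was lower after NaAsO2 than in Ctrl for HSPA8, by -1.62, for HSPA9, by -1.21, and for HSPA4, by -1.15. In the insoluble fraction, the NaAsO2 effect on HSPA8 was 1.13 higher on the log2 scale with RK-33 than without it. Without replicate 3 of the NaAsO2 insoluble group, HSPA8 alone was still called for the fraction difference, and its interaction was under the fold limit. Causes were not tested.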

How the results depend on the processing

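Of the values that members' called fold changes took under the alternatives, 1681 were still called, 30 were not and 0 changed sign. Fits with libraries left out gave 1279 of the 1681 and 21 of the 30. Many of these left out a library in neither compared group and could change little. Of the values of fold changes that were not called, 45 of 3726 were called under an alternative and 95 had another sign, none of these called. A fold limit of 2 on the log2 scale left 1 member each for NaAsO2 against Ctrl in both fractions, 2 and 1 for Combo against RK-33 in the soluble and insoluble fractions, and 0 for the fractions after NaAsO2 and in Combo, for the fraction difference of NaAsO2 against Ctrl and for the insoluble interaction, and for introns 1 each in soluble NaAsO2 and RK-33 against Ctrl and 0 in both fractions of Combo against NaAsO2. With the compared groups fitted alone, Combo against NaAsO2 in the insoluble fraction had 2 members and 1 intron called (sum 2.84), the soluble interaction 1 and the insoluble interaction 0 (sum -0.0079). Exon plus intron counts gave 2 members between fractions after NaAsO2, 1 after RK-33 and 0 for the insoluble interaction, with the sum's interaction at -0.045 (soluble) and -0.056 (insoluble), and RLE scaling and DESeq2 gave -0.012 and -0.013 for the latter, all near 0. For the fraction difference of Combo against NaAsO2, no filter gave 2 members and DESeq2 1. With the replicate number as a block over all libraries, this difference had 1 member (HSPA6 -1.27 (adjusted p = 0.0288)), as did the soluble interaction (HSPA6 1.38 (adjusted p = 0.0495)). With the lysate as a block, or the replicate block in the NaAsO2 and Combo insoluble groups alone (sum 2.88), no count of called members changed. Scaling by library size alone moved the median over all genes by up to 0.18 (soluble interaction) and -0.15 (soluble NaAsO2 against Ctrl), and no called fold change of a member changed sign. Counts of called members and introns under the alternatives, in the Results, here and below, are given without the share of all genes called under that setting. These counts therefore cannot tell a change in the members from a change in calling over all genes. The causes of these changes were not tested.

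Leaving out single libraries gave 0 to 1 members between fractions in Ctrl, 1 to 4 in Combo, 1 to 3 for the fraction difference of NaAsO2 against Ctrl, 0 to 4 for that of Combo against NaAsO2 and 0 to 1 for the insoluble interaction. The sum ranged over 0.82 to 1.41 for NaAsO2 against Ctrl and 0.96 to 1.33 for Combo against RK-33 (both insoluble), -0.28 to 0.34 and -1.10 to -0.67 between fractions after NaAsO2 and in Combo, -1.198 to -0.57 for the fraction difference of Combo against NaAsO2 and -0.24 to 0.39 for the insoluble interaction. Introns called ranged over 1 to 2 in soluble NaAsO2 against Ctrl, with 1 without replicate 3 of soluble Ctrl or replicate 2 of soluble NaAsO2, and 2 to 5 in insoluble Combo against NaAsO2. Leaving out replicate 3 of both the NaAsO2 and the Combo insoluble groups, an alternative chosen after seeing the data, gave 3 members between fractions in Combo, 1 and 2 for the fraction differences of NaAsO2 against Ctrl and of Combo against NaAsO2, 1 and 0 for the soluble and insoluble interactions and 6 introns in insoluble Combo against NaAsO2, with the sum at 0.82 and 0.96 for insoluble NaAsO2 against Ctrl and Combo against RK-33 and -0.26 and -1.08 between fractions after NaAsO2 and in Combo. At this depth HSPA2 and HSPA4L had too few exon counts to be tested, and the sizes of the differences of HSPA6 and HSPA1L from Ctrl rest on few counts.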
